A study of Homo sapiens with 20 samples.

Results

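The genes described here were 10 chemokines, 3 interferon-inducible CXC chemokines (CXCL9, CXCL10 and CXCL11), 2 membrane-anchored chemokines (CXCL16 and CX3CL1) and 5 inflammatory chemokines (CXCL8, CCL2, CCL5, CCL7 and CCL8), chosen by name from the 43366 genes of the count table and all present in it. Their mRNA was measured by RNA-seq in U2OS, a human osteosarcoma cell line, in 5 clones with wild-type ZBTB48 (WT) and 5 clones labelled as ZBTB48 knockouts (KO). Every clone was sampled without treatment and after interferon gamma (IFNγ) at 250 U/ml for 24 h. ZBTB48 is a zinc finger protein that binds telomeres and gene promoters, and the series asked how its loss alters expression with and without IFNγ. The 20 libraries thus formed 4 groups of 5, and each clone gave 1 untreated and 1 treated library. The clones came from an earlier study, were grown in the same medium and are all of 1 cell line.

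Total counts per library ranged from 46652288 to 72952859, at which 3 counts, taken as the floor, corresponded to 0.0404 to 0.0609 CPM, the usual unit of counts scaled to library size. Of 6 mesenchymal and osteoblast markers 5 averaged at least 1 CPM in each group (summed level 3130 to 10747 CPM per library). COL1A2, a collagen chain, stayed at or under 0.944 CPM in every library. Of 6 haematopoietic markers only 1 averaged at least 1 CPM, in the untreated KO group alone (summed 1.01 to 3.49 CPM). Of 4 endothelial markers 2 did so in each group (summed 2.12 to 5.46 CPM). Of 4 epithelial markers 1 did so, or 2 in the treated KO group (summed 0.766 to 13.9 CPM). ZBTB48 mRNA was 8.02 to 11.6 CPM in the WT libraries, and the median of the libraries labelled KO was 3.12 CPM untreated and 3.84 CPM with IFNγ. In KO replicate 3 ZBTB48 mRNA was not reduced, with 11.3 CPM untreated and 15.8 CPM with IFNγ. MTFP1, a gene known to depend on ZBTB48, was at most 0.938 CPM in all libraries labelled KO, replicate 3 included, against at least 27.2 CPM in WT. The counts measure mRNA and do not show whether ZBTB48 protein was made. The differences between WT and KO labels are given below with replicate 3 and, where they moved, without it.

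Chemokines are small secreted proteins that guide leukocytes along concentration gradients through G protein-coupled receptors. IFNγ binds its receptor and activates the kinases JAK1 and JAK2, and the signal reaches promoters that hold the gamma-activated sequence (GAS). It also induces the factor IRF1, which binds the interferon-stimulated response element (ISRE). CXCL9, CXCL10 and CXCL11 share the receptor CXCR3 on activated T and NK cells, whereas CXCL8 and CCL2 are known as targets of NF-kappaB and attract neutrophils and monocytes, respectively.

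CXCL9, CXCL10 and CXCL11 lie side by side within 34.8 kb on chromosome 4 and rose together from near 0, so the 250 bases before their transcription starts are shown, beside those of CXCL8, which lies 2258 kb away on the same chromosome and had a smaller log2 fold change. The sequences are from RefSeq (GRCh38.p14), are written 5′ to 3′ along the strand of the gene, and end at the base before the start. Capitals mark matches on either strand to 3 motifs, none of which overlapped another in these windows. The motifs are GAS (TTCNNNGAA), the ISRE (GAAA, any 2 bases and GAAA) and the NF-kappaB consensus. The last was read as GGG, A or G, any base, A or T, C or T, C or T, and CC.
CXCL9, chr4:76007510-76007759, minus strand: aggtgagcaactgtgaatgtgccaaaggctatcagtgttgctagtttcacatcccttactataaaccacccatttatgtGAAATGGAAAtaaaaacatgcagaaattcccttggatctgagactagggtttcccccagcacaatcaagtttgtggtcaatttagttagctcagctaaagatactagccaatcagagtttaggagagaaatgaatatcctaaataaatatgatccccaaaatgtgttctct
CXCL10, chr4:76023498-76023747, minus strand: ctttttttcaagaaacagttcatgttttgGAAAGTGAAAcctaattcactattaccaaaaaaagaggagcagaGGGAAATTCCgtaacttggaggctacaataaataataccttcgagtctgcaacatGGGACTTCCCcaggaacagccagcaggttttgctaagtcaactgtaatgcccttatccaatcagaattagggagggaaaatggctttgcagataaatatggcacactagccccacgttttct
CXCL11, chr4:76036071-76036320, minus strand: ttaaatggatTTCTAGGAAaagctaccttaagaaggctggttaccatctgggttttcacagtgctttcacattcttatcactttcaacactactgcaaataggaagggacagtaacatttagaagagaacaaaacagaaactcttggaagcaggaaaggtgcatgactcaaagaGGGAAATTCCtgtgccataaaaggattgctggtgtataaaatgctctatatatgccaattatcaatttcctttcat
CXCL8, chr4:73740319-73740568, plus strand: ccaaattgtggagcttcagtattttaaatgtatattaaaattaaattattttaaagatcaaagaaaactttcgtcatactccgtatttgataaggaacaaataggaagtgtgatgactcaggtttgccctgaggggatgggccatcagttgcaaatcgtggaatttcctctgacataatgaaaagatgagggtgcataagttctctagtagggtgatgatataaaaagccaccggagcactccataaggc

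CXCL9 held 1 ISRE match, 162 to 171 bases before the start. CXCL10 held 1 ISRE match, 212 to 221 bases before the start, and 2 matches to the NF-kappaB consensus. CXCL11 held 1 GAS match, 232 to 240 bases before the start, and 1 match to the NF-kappaB consensus. The CXCL8 window held no full match to any of these motifs, but its stretch tggaatttcc differs from the NF-kappaB consensus in the first letter only. Among 35116 RefSeq promoters of the same length, 6.57% held GAS, 3.02% the ISRE and 5.21% the NF-kappaB consensus. CCL7 and CCL8 each held 1 GAS match, at 242 to 250 and 83 to 91 bases before the start. In all, 6 of the 10 genes were in the promoter table, and CXCL16, CX3CL1, CCL2 and CCL5 were not. A match describes letters and is not a measured binding site, and a window without a match can hold sites that differ from these letters.

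In WT clones, 5 of the 9 chemokines tested rose with IFNγ, and none fell: CXCL9, CXCL10, CXCL11, CXCL16 and CX3CL1. A gene was called at a Benjamini-Hochberg adjusted p under 0.01 in edgeR's quasi-likelihood test and a change of over 2-fold. By this rule 2.48% of the 19522 genes tested rose and 0.512% fell in WT clones. The median log2 fold change of the 9 chemokines was 1.74, against -0.03 over all genes tested. CCL8 had too few counts for the test.

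**Figure D1:**
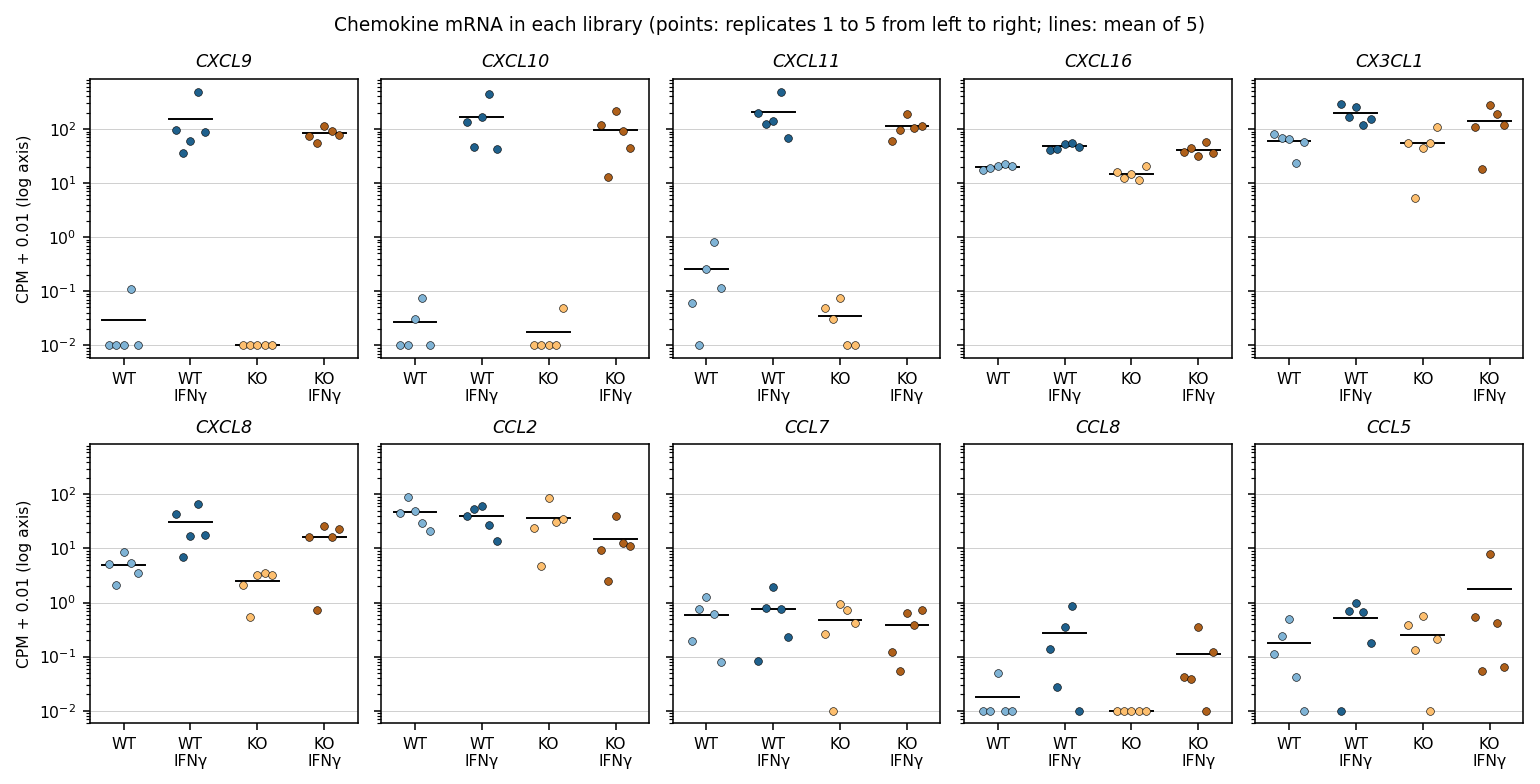
Level of each chemokine in each library, as CPM plus 0.01 on a log axis, in untreated and IFNγ-treated WT clones (blue) and clones labelled KO (orange). Points are replicates 1 to 5 from left to right and lines are means of 5. CXCL9, CXCL10 and CXCL11 rise from under 1 CPM to 12.8 CPM or more, CXCL16 rises with little spread, and CCL5, CCL7 and CCL8 stay under 8 CPM.

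CXCL9, which attracts activated T cells through CXCR3, had 0, 0, 0, 0.0978 and 0 CPM in untreated WT replicates 1 to 5. With IFNγ the same clones had 94.2, 36.0, 60.5, 490.3 and 88.8 CPM. Every treated library lay far above every untreated one, and WT replicate 4 alone stood above the other treated clones. The ratio of the group means was 7873-fold, with a 95% Poisson interval of 3617 to 21453 from the 6 untreated counts, which covers counting error only (edgeR's quasi-likelihood test, adjusted p = 6.05e-05). All 6 untreated counts were in WT replicate 4, so the fold rests on that clone. The fitted log2 fold change of 12.7 was 11.6 without treated WT replicate 4, and without the untreated library of that clone no untreated count remained and the fitted value of 16.1 depended on the prior count.

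CXCL9 gave no count in any of the 5 untreated libraries labelled KO. After IFNγ it stood at 75.0, 55.6, 115, 91.6 and 76.7 CPM. Against the floor of 3 counts per untreated library the treated mean was at least 1488-fold higher (edgeR's quasi-likelihood test, adjusted p = 5.31e-06). The treated KO libraries spanned 2.07-fold from lowest to highest, and the treated WT libraries 13.6-fold.

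CXCL10, the CXCR3 ligand also known as IP-10, had 0, 0, 0.0203, 0.0652 and 0 CPM in untreated WT clones. Treated WT clones had 133, 47.4, 169, 435 and 42.3 CPM. The libraries labelled KO went from 0, 0, 0, 0 and 0.0396 CPM to 118, 12.8, 218, 91.1 and 44.2 CPM. In both genotypes the treated and untreated libraries did not overlap.

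The ratio of the mean CXCL10 levels was 9671-fold in WT clones (95% Poisson interval 4144 to 29786, 5 untreated counts, edgeR's quasi-likelihood adjusted p = 2.01e-05). The fitted log2 fold change of 13.0 in WT clones was 14.6 without untreated and 12.3 without treated WT replicate 4. In clones labelled KO the ratio was 12220-fold, with a wide interval of 3383 to 100904 from 2 untreated counts (edgeR's quasi-likelihood adjusted p = 4.51e-05). Both intervals cover counting error only and leave out the spread between clones. The KO call was lost without both libraries of KO replicate 5, the clone that held both untreated counts (adjusted p = 0.0111).

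CXCL11, the third CXCR3 ligand, was low but above the floor of 3 counts in 3 untreated WT clones, where CXCL9 and CXCL10 passed that floor in replicate 4 alone. It stood at 0.0499, 0, 0.244, 0.815 and 0.106 CPM in untreated WT clones. After IFNγ, WT clones had 198, 127, 141, 494 and 67.0 CPM. Libraries labelled KO had 0.0386, 0.0202, 0.0658, 0 and 0 CPM untreated and 60.4, 96.8, 187, 105 and 116 CPM treated. WT replicate 4 was the highest WT library both before and after treatment, in CXCL9, CXCL10 and CXCL11 alike.

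The ratio of the mean CXCL11 levels was 845-fold in WT clones (95% Poisson interval 670 to 1082, edgeR's quasi-likelihood adjusted p = 7.53e-05). It was 4537-fold in clones labelled KO, with an interval of 2202 to 11285 from 7 untreated counts (edgeR's quasi-likelihood adjusted p = 4.51e-07). Both intervals cover counting error only and leave out the spread between clones, so they do not compare the genotypes. Taken by clone, the responses differed by -0.40 on the log2 scale (WT minus KO, two-sided exact permutation p = 0.452, n = 5 clones each). Of the 71 untreated WT counts, 50 came from replicate 4, and the treated levels of the genotypes overlapped. The fitted log2 fold change of 9.70 in WT clones was 11.1 without untreated and 9.08 without treated WT replicate 4.

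CXCL16 and CX3CL1 are made as transmembrane proteins on a mucin stalk and are released by the proteases ADAM10 and ADAM17. Both were already expressed before treatment. CXCL16 (chromosome 17, 4733533 to 4739928, minus strand) had 17.5, 19.1, 20.3, 22.2 and 20.7 CPM in untreated WT clones and 41.7, 43.2, 53.1, 56.1 and 46.1 CPM with IFNγ. The groups did not overlap, and within each the highest library was at most 1.35 times the lowest, the smallest spread among the 10 chemokines in treated WT clones. CXCL16 rose 2.43-fold (log2 fold change 1.28, SE 0.12, edgeR's quasi-likelihood adjusted p = 4.74e-05).

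In libraries labelled KO, CXCL16 went from 15.8, 12.3, 14.9, 11.3 and 20.7 CPM to 37.4, 44.6, 31.1, 57.1 and 36.6 CPM. These groups did not overlap either, and CXCL16 rose 2.76-fold (log2 fold change 1.46, SE 0.21, edgeR's quasi-likelihood adjusted p = 0.00194). The call was lost without both libraries of KO replicate 1, 3 or 4, where the adjusted p was 0.0154, 0.0108 and 0.0141. Exons of CXCL16 overlap those of MED11 and ZMYND15 on the opposite strand, and the strand setting of the counting is not given in the sources used here, so reads of these genes may be mixed.

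CX3CL1 (fractalkine, chromosome 16, 57372490 to 57385044, plus strand), which binds CX3CR1 and acts in both adhesion and migration, had 81.8, 69.7, 65.9, 23.2 and 58.3 CPM in untreated WT clones. With IFNγ it had 296, 164, 256, 119 and 151 CPM. All 5 clones were higher after treatment and the groups did not overlap. CX3CL1 rose 3.34-fold (log2 fold change 1.74, SE 0.34, edgeR's quasi-likelihood adjusted p = 0.00704), close to the threshold. Across 22 alternatives the call was lost in 14, among them the fit with no filter on low counts (adjusted p = 0.0173), the fit over all 20 libraries (adjusted p = 0.0897) and those without WT replicates 1, 2, 3 or 5.

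Libraries labelled KO had 54.1, 5.24, 45.4, 55.6 and 110.1 CPM of CX3CL1 untreated and 107, 17.9, 283, 189 and 120.1 CPM with IFNγ. KO replicate 2 was the lowest in both conditions, and the groups overlapped although each clone was higher when treated. CX3CL1 was not called in KO (log2 fold change 1.41, SE 0.72, edgeR's quasi-likelihood adjusted p = 0.273).

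In clones labelled KO, 4 of the 9 chemokines tested were called, all higher with IFNγ: CXCL9, CXCL10, CXCL11 and CXCL16. By the same rule 1.70% of the 19385 genes tested rose and 0.258% fell. The median log2 fold change of the 9 was 2.704, against -0.03 over all genes tested. With the clone as a replicate block, 6 were called, CXCL8 (higher) and CCL2 (lower) in addition to those 4, where 2.71% of all genes tested rose and 1.01% fell. When the pairing of KO replicates 4 and 5 was exchanged, the same 6 were called, and 743 of the 19385 genes rose and 465 fell. The count was 3 without both libraries of replicate 1, 3 or 4 (CXCL16 was lost) or of replicate 5 (CXCL10 was lost), and 5 without those of replicate 2 (CXCL8 was added).

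CXCL8, the neutrophil attractant interleukin-8 (chromosome 4, 73740569 to 73743716, plus strand), had 5.24, 2.13, 8.59, 5.43 and 3.45 CPM in untreated WT clones. With IFNγ it had 43.8, 7.01, 16.8, 65.9 and 17.8 CPM. All 5 clones were higher when treated, but treated replicate 2 lay below untreated replicate 3. The log2 fold change of 2.63 (SE 0.58) missed the threshold (edgeR's quasi-likelihood adjusted p = 0.0140) and passed it without treated WT replicate 2 (adjusted p = 0.00587) and with DESeq2 (adjusted p = 1.01e-05).

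Libraries labelled KO had 2.12, 0.526, 3.17, 3.52 and 3.26 CPM of CXCL8 untreated and 16.3, 0.716, 26.4, 16.4 and 22.6 CPM with IFNγ. KO replicate 2 barely moved, while the other 4 treated libraries lay above every untreated one. The log2 fold change was 2.704 (SE 0.75, edgeR's quasi-likelihood adjusted p = 0.0504). CXCL8 was called with the clone as a replicate block (2.41, adjusted p = 0.00477), with DESeq2 (adjusted p = 7.37e-04) and without both libraries of KO replicate 2 (2.75, adjusted p = 1.58e-04).

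CCL2 (MCP-1, chromosome 17, 34255285 to 34257203, plus strand), which recruits monocytes through CCR2, had 44.7, 88.2, 49.2, 30.0 and 20.9 CPM in untreated WT clones. Treated WT clones had 40.3, 53.9, 61.8, 27.0 and 13.5 CPM. The groups overlapped almost wholly, and 1 of 5 clones was higher when treated. The log2 fold change was -0.23 (SE 0.43, edgeR's quasi-likelihood adjusted p = 0.807).

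In libraries labelled KO, CCL2 had 23.7, 4.70, 87.3, 31.2 and 34.7 CPM untreated and 9.48, 2.53, 39.1, 12.5 and 10.9 CPM with IFNγ. Each of the 5 clones was lower when treated, yet the groups overlapped because the clones themselves differed 18.6-fold before treatment. Without regard to the clone the log2 fold change was -1.29 (SE 0.74) and was not called (edgeR's quasi-likelihood adjusted p = 0.333). With the clone as a replicate block it was -1.28 (SE 0.12) and CCL2 fell (edgeR's quasi-likelihood adjusted p = 7.80e-04).

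CCL7 (MCP-3) and CCL8 (MCP-2) attract monocytes and lie with CCL2 within 66.1 kb on chromosome 17. CCL7 stayed between 0.0708 and 1.28 CPM in untreated and between 0.0725 and 1.92 CPM in treated WT clones, and was at or under 0.938 CPM in every library labelled KO. Its log2 fold changes with IFNγ were 0.41 (SE 0.82) in WT and -0.32 (SE 0.90) in KO clones, neither called by edgeR's quasi-likelihood test (adjusted p = 0.826 and 0.880). Per kilobase of exon, untreated WT clones held 62.9 CPM of CCL2 and 0.71 CPM of its neighbour CCL7.

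CCL8 had counts of 0, 0, 2, 0 and 0 in untreated WT clones and 7, 1, 25, 51 and 0 with IFNγ. The 5 untreated libraries labelled KO held none, and the treated ones held 2, 2, 18, 0 and 6. The ratio of the means in WT was 33.0-fold with a Poisson interval of 9.14 to 272 from 2 untreated counts, which covers counting error only, and in KO at least 1.84-fold. With no filter on low counts the log2 fold change was 4.87 in WT and 5.56 in KO, the latter with no untreated count. Neither was called by edgeR's quasi-likelihood test (adjusted p = 0.0607 and 0.107, unadjusted p = 0.00346 and 0.00628).

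CCL5 (RANTES, chromosome 17, 35871491 to 35880360, minus strand), a T-cell attractant, had at most 0.487 CPM in untreated and 0.969 CPM in treated WT clones. Libraries labelled KO had 0.367, 0.121, 0.543, 0 and 0.198 CPM untreated and 0.526, 0.0438, 7.75, 0.415 and 0.0553 CPM with IFNγ. Only treated KO replicate 3, whose ZBTB48 mRNA was not reduced, exceeded 1 CPM. The log2 fold changes were 1.58 (SE 1.04) in WT and 2.82 (SE 1.36) in KO clones, not called by edgeR's quasi-likelihood test (adjusted p = 0.391 and 0.241), and the latter was 0.07 without that library.

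Per kilobase of exon, the scale used here to compare levels between genes, CCL2 was the most abundant of the 10 mRNAs before treatment. Untreated WT clones averaged 62.9 ± 34.9 CPM per kb of CCL2 (SD, n = 5), followed by CX3CL1 with 18.2 ± 6.74, CXCL16 with 8.32 ± 0.74 and CXCL8 with 2.41 ± 1.18, and the other 6 were under 1 CPM per kb. Untreated libraries labelled KO had the same order for these 4 genes, with 49.0 ± 41.5, 16.5 ± 11.4, 6.26 ± 1.53 and 1.23 ± 0.60 CPM per kb.

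With IFNγ the order changed. CXCL10 and CXCL11 led in WT clones with 141 ± 137 and 139 ± 113 CPM per kb, a difference far within their spread, ahead of CX3CL1 (60.1 ± 22.8), CXCL9 (55.8 ± 68.6) and CCL2 (53.1 ± 26.4), whose means also lay within 1 SD of each other. The same 5 genes led in libraries labelled KO, with CXCL10 at 82.3 ± 67.2 and CCL2 at 20.1 ± 19.0 CPM per kb. The summed level of all 10 genes went from a median of 95.4 to 456 CPM per kb in WT clones and from 66.3 to 238 in KO clones.

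**Figure D2:**
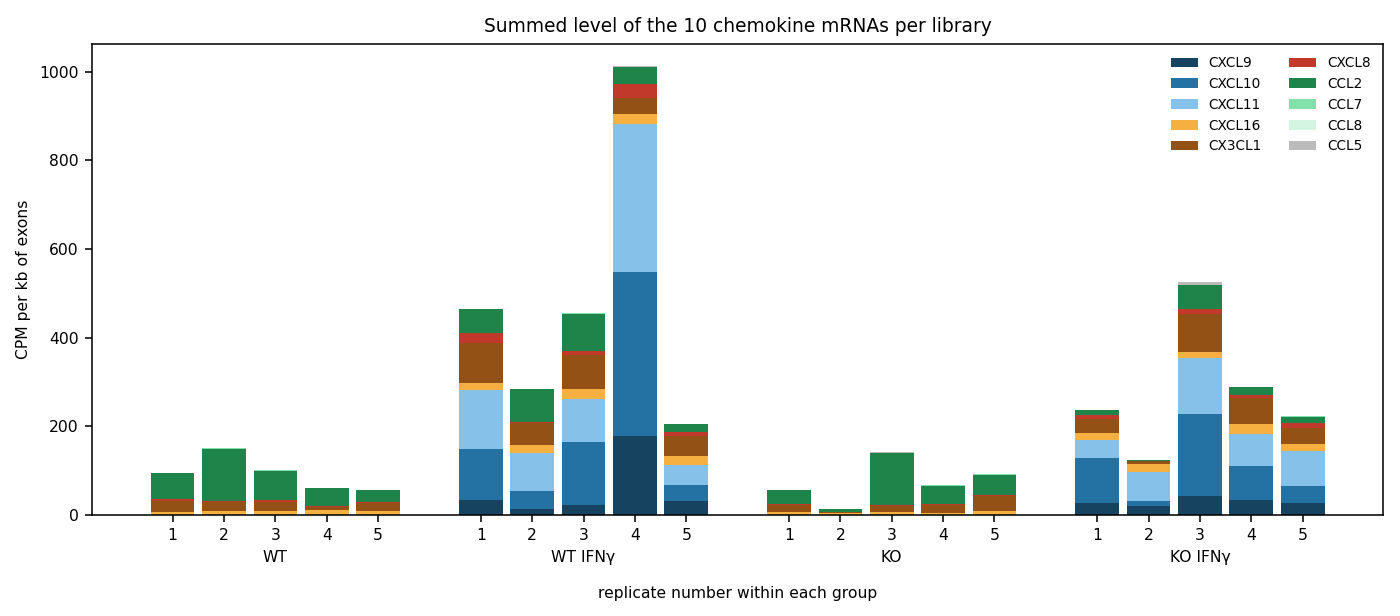
Summed level of the 10 chemokine mRNAs in each of the 20 libraries, in CPM per kb of exons, stacked by gene, with replicate numbers on the horizontal axis. CCL2 (dark green) is the largest part of every untreated bar, CXCL9, CXCL10 and CXCL11 (blues) most of nearly all treated bars, and treated WT replicate 4 is the tallest at 1012 CPM per kb.

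The share of the summed level that was CCL2 went from 49.9 to 79.2% in untreated WT clones to 3.60 to 25.6% with IFNγ, and in libraries labelled KO from 47.2 to 83.6% to 2.74 to 10.0%. CXCL9, CXCL10 and CXCL11 together made up at most 1.06% before treatment and 48.8 to 87.1% (WT) or 62.9 to 77.5% (KO) after it. These shares move together by construction, and in WT clones the CCL2 level itself was not called. In bulk RNA, a change in the number of cells that express a gene and a change in the mRNA per cell cannot be told apart.

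Of the 10 chemokines, 6 could be tested between untreated WT and KO clones and 9 between treated ones, and none was called by edgeR or by DESeq2 in either condition, where 0.0154% and 0.0155% of all genes tested were called. At an unadjusted p under 0.05 in edgeR there was 1 in each comparison, against 4.79% of all genes tested in untreated and 4.35% in treated clones. DESeq2 gave 2 in untreated clones (CXCL16 and CXCL8), against 5.72% of all genes, and 1 in treated clones, against 5.27%. In untreated clones CXCL16 was 1.32-fold higher in WT (log2 fold change 0.40, SE 0.17, 95% interval 0.04 to 0.77, adjusted p = 0.980), with overlapping libraries. Without KO replicate 3 it was 0.40 with an interval of -0.016 to 0.81, and the interval included 0 in 6 of the 10 fits that left out 1 library. CXCL8 was 1.95-fold higher in untreated WT clones, with an interval of -0.10 to 2.02 on the log2 scale that includes 0, and the log2 fold change went from 0.96 to 1.06 without KO replicate 3. Without that library untreated CCL2 went from 0.35 to 0.96 and CCL7 from 0.28 to 0.70, both with intervals that include 0.

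In treated clones CCL2 was 2.64-fold higher in WT (log2 fold change 1.40, SE 0.61, 95% interval 0.08 to 2.73, edgeR's quasi-likelihood adjusted p = 0.996). Its WT libraries spanned 13.5 to 61.8 CPM and those labelled KO 2.53 to 39.1 CPM. Without KO replicate 3 the treated difference was 2.15 (95% interval 0.99 to 3.31), still not called (edgeR's quasi-likelihood adjusted p = 0.947). Its interval included 0 in 7 of the 10 fits that left out 1 library. The treated log2 fold changes of CXCL9, CXCL10 and CXCL11 were 0.89 (95% interval -0.42 to 2.20), 0.77 (-0.84 to 2.39) and 0.85 (-0.17 to 1.88), so changes of over 4-fold between the genotypes lay within the upper ends of the first 2 intervals. Without treated KO replicate 3 they were 1.04, 1.31 and 1.11, where the interval of CXCL11 (0.0029 to 2.23) just left out 0. Without treated WT replicate 4 they were -0.24, 0.026 and 0.24, so their size rested on that clone.

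**Figure D3:**
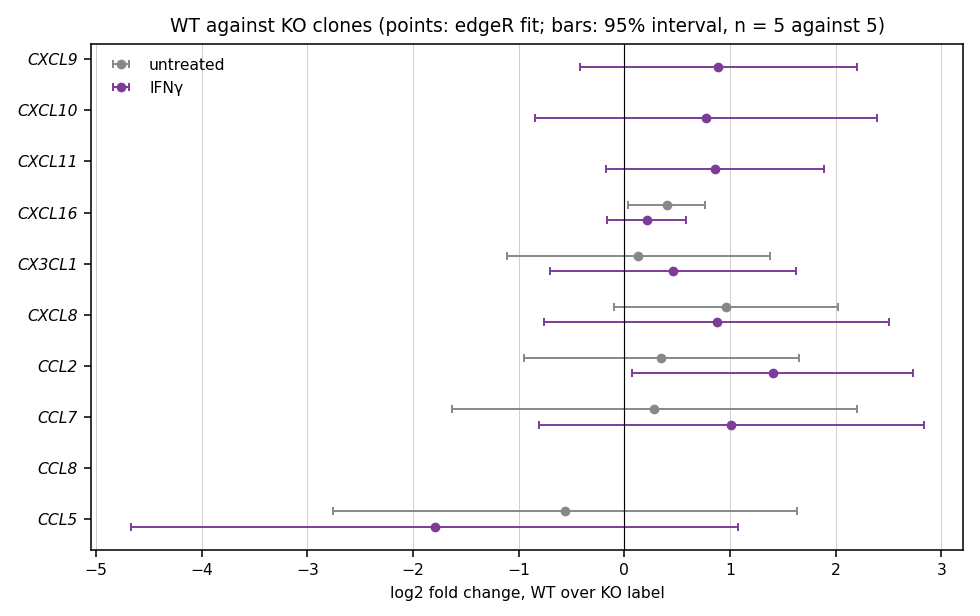
Log2 fold change of WT over KO label for each chemokine in untreated (grey) and IFNγ-treated (purple) libraries, with 95% intervals of the edgeR fit (n = 5 against 5). Genes with no point had too few counts for the test. Only the untreated CXCL16 and the treated CCL2 intervals leave out 0 (0.04 to 0.77 and 0.08 to 2.73), and neither passed the adjusted threshold.

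Among the other members CX3CL1, CXCL8 and CCL7 had treated values of 0.46, 0.87 and 1.01, each with an interval that includes 0, and 0.86, 1.11 and 1.28 without treated KO replicate 3. CXCL16 had 0.21, and 0.13 without that library. CCL5 had -1.80 (SE 1.31), and 0.94 without treated KO replicate 3. The rule left CCL8 out of this comparison.

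The difference between the IFNγ responses was tested over all 20 libraries as WT minus KO. None of the 9 chemokines tested was called by edgeR or DESeq2, 0 at an unadjusted p under 0.05, and 0% of the 21052 genes tested were called. CCL2 had a difference of 1.04 on the log2 scale (SE 0.92, edgeR's quasi-likelihood unadjusted p = 0.270). With the clone as a replicate block it was 1.02 (SE 0.20, edgeR's quasi-likelihood unadjusted p = 1.83e-04), with an adjusted p of 1.00 over all genes. The block also gave CXCL9 a difference of -2.44 (95% interval -4.74 to -0.14, edgeR's quasi-likelihood unadjusted p = 0.0400) and CXCL11 one of -2.16 (-4.16 to -0.17, unadjusted p = 0.0361), opposite in sign to CCL2 and likewise not called. Thus 3 of the 9 had an unadjusted p under 0.05 with the block, against 1.51% of all genes tested, and 3 with KO replicates 4 and 5 exchanged, against 2.77%. The untreated KO libraries behind these values held 0 counts of CXCL9 and 7 of CXCL11 in all. Without KO replicate 3 and without the block the difference was 1.17 for CCL2 and -2.80 for CXCL11, and that of CXCL10 turned from -0.27 to 0.56.

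Each clone's own response, log2((treated CPM + 0.1)/(untreated CPM + 0.1)), keeps the paired libraries together. For CCL2 it was -0.15, -0.71, 0.33, -0.15 and -0.62 in WT replicates 1 to 5 and -1.31, -0.87, -1.16, -1.31 and -1.66 in KO replicates 1 to 5. The clones did not overlap: every KO clone fell by more than every WT clone. The means were -0.26 ± 0.42 and -1.26 ± 0.29 (SD, n = 5 clones each), a difference of 1.00, with a two-sided exact permutation p of 0.00794, the smallest that permutations of 5 against 5 clones can give. It was the 1 of 9 such tests with a p under 0.05, and the difference was 0.85 to 1.11 when any 1 clone was left out, 1.03 without KO replicate 3. The p values were not adjusted over these tests, and the share of all genes whose clones separate in this way was not determined. When the pairing of KO replicates 4 and 5 was exchanged, the KO responses were -1.51 to -0.87 and the p was the same.

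**Figure D4:**
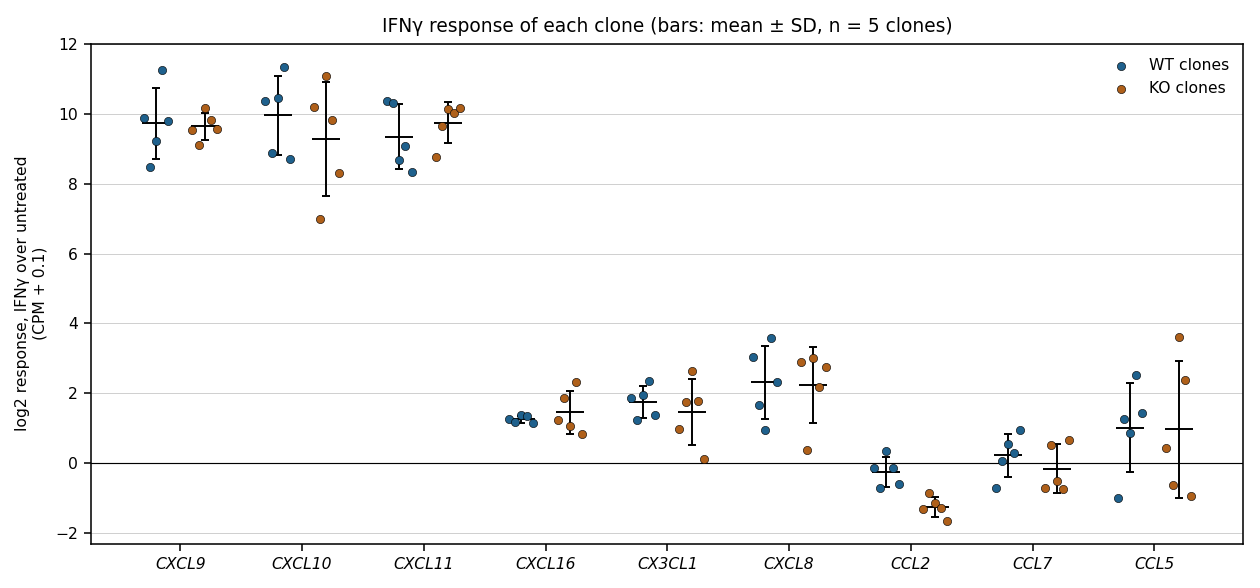
IFNγ response of each clone, as log2 of treated over untreated CPM plus 0.1, for the 9 chemokines tested, with WT clones in blue and clones labelled KO in orange and bars for mean ± SD (n = 5 clones). The groups overlap for 8 genes, and for CCL2 all 5 KO clones, from -1.66 to -0.87, lie below all 5 WT clones, from -0.71 to 0.33. The share of all genes that separate in this way was not determined.

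None of the other 8 responses had a p under 0.05, with two-sided exact permutation p values of 0.365 to 0.968 (n = 5 clones each). Without KO replicate 3 these p values were 0.206 to 0.746, and the difference was 1.13 for CXCL10, 0.60 for CX3CL1 and 0.71 for CCL5, against 0.68, 0.30 and 0.048 with it. CXCL16 rose by 1.26 ± 0.10 in WT and 1.46 ± 0.62 in KO clones, where the response ranged from 0.82 in replicate 5 to 2.33 in replicate 4. These are the clones whose treated and untreated libraries matched each other's number best over all genes, and with their treated libraries exchanged the KO spread was 1.46 ± 0.32, from 1.06 to 1.85. CX3CL1 averaged 1.75 ± 0.45 and 1.45 ± 0.95 (± 0.76 when exchanged), and CXCL8 2.31 ± 1.05 and 2.24 ± 1.09. A pseudocount of 0.1 CPM sets the size of the responses of CXCL9, CXCL10 and CXCL11, whose untreated levels were near 0.

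Some single libraries were the highest or the lowest of their group for several chemokines. Treated WT replicate 4 was the highest of its group for 6 of the 10 genes, namely CXCL9, CXCL10, CXCL11, CXCL16, CXCL8 and CCL8, and the lowest for CX3CL1. Treated KO replicate 2 was the lowest for 7, and treated KO replicate 3 the highest for 8 and the lowest for CXCL16. Before treatment KO replicate 2 was already the lowest for CX3CL1, CXCL8, CCL2 and CCL7. The share of all genes for which these libraries were the highest or lowest was not determined. Whether these places are particular to the chemokines is therefore not known.

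**Figure D5:**
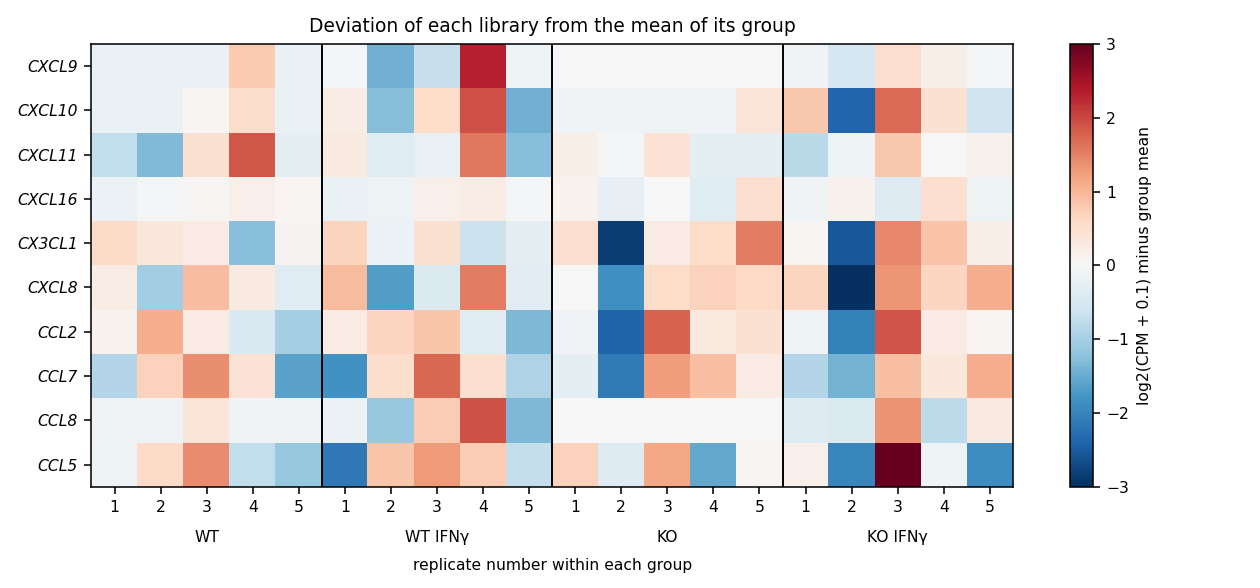
Deviation of each library from the mean of its group, as log2(CPM + 0.1), for the 10 chemokines (rows) and 20 libraries (columns), with the colour scale limited to -3 and 3. Treated WT replicate 4 is high for CXCL9, CXCL10, CXCL11, CXCL8 and CCL8, KO replicate 2 is low for CX3CL1, CXCL8 and CCL2 in both conditions, and KO replicate 3 is high for CCL2 in both.

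The spread differed by gene as well as by clone. Among treated libraries labelled KO the highest exceeded the lowest 36.8-fold for CXCL8, 17.1-fold for CXCL10, 15.8-fold for CX3CL1 and 15.5-fold for CCL2, against 1.84-fold for CXCL16. Among untreated WT clones the factor was 4.23 for CCL2 and 1.27 for CXCL16.

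Genes whose deviations from the group means were most like those of CXCL10, CXCL8 and CCL2 were sought among 21043 genes over the 20 libraries, which share 10 clones and their depth. For CXCL8 the nearest was TNFAIP3 (A20), an inhibitor of NF-kappaB signalling (Pearson r 0.90, Spearman rho 0.68), followed by INTS6L (r 0.88) and PANK4 (r 0.88). For CXCL10 they were USP45 (r 0.87), FAM241A (r 0.84) and CDO1 (r 0.83), and for CCL2 LOC105369724 (r 0.95), LOC105378230 (r 0.95) and ADGRL4 (r 0.94). These are the highest of many correlations and are given as a description.

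Of 33 other chemokine ligands, 12 had at most 3 counts in every library and 12 could be tested within each genotype. In WT clones 2 rose, CCL20 (log2 fold change 2.04, SE 0.27, adjusted p = 6.16e-04), which binds CCR6, and CCL25 (6.99, SE 1.11, adjusted p = 0.00215), which binds CCR9, and in KO clones CCL25 alone (8.65, SE 1.02, adjusted p = 5.82e-04), all by edgeR's quasi-likelihood test. CCL25 was at or under 0.124 CPM in all untreated libraries, at least 0.646 CPM in treated WT and at least 2.46 CPM in treated KO libraries. No ligand fell by the rule, but some levels were lower with IFNγ. CCL24 had 5.41 to 13.1 CPM in untreated and 0.592 to 3.10 CPM in treated WT clones. In KO clones it had 4.53 to 12.8 and 0.907 to 3.63 CPM, and in neither genotype did the conditions overlap. CXCL14 averaged 244 ± 148 and 102 ± 77.1 CPM in WT and 201 ± 151 and 77.4 ± 48.0 CPM in KO clones (SD, n = 5), with overlap. The median log2 fold change of the 12 ligands tested was 0.14 in WT and 0.57 in KO clones.

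Of 23 chemokine receptors, 10 could be tested, and CCR7 rose in WT clones (log2 fold change 2.99, SE 0.38, edgeR's quasi-likelihood adjusted p = 5.74e-04), from 0.151 ± 0.036 to 1.20 ± 0.55 CPM (SD, n = 5), and missed the threshold in KO clones with a like fold change (2.88, SE 0.80, adjusted p = 0.0504), from 0.190 ± 0.112 to 1.42 ± 1.28 CPM. No receptor was called in KO clones. CXCR3, the receptor of CXCL9, CXCL10 and CXCL11, was at most 0.0752 CPM in any library, and CCR2, a receptor of CCL2, at most 0.0843 CPM. The U2OS cells thus contained mRNA of these ligands and hardly any of CXCR3 or CCR2. CCR1, another receptor of the list, was not called with IFNγ in either genotype. It averaged 2.58 CPM (1.51 to 4.71) in untreated and 7.23 CPM (4.12 to 13.8) in treated WT clones. In KO clones it averaged 1.48 CPM (0.223 to 2.85) untreated and 2.96 CPM (0.555 to 5.51) treated. The conditions overlapped in both genotypes.

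None of the 4 genes that cleave or restrain chemokines passed both parts of the rule in either genotype. ADAM17 passed the adjusted p but not the 2-fold limit in WT clones, from 58.5 to 68.5 CPM untreated to 92.6 to 141 CPM with IFNγ, with no overlap (log2 fold change 0.85, SE 0.12, edgeR's quasi-likelihood adjusted p = 0.00108). In KO clones its log2 fold change was 0.93 (SE 0.22, adjusted p = 0.0273). ADAM10 averaged 201 ± 48.5 CPM in untreated and 183 ± 48.4 CPM in treated WT clones (edgeR's quasi-likelihood adjusted p = 0.793), and TIMP3, an inhibitor of these proteases, 92.3 ± 47.7 and 103 ± 76.2 CPM (adjusted p = 0.872). Of 16 genes of the signalling upstream, 7 rose and 1 fell in WT clones, and the numbers were the same in KO clones. IRF1 rose by 4.96 on the log2 scale in WT and 4.72 in KO clones, and IRF9 by 2.28 and 2.27, while FOS, a part of the AP-1 factor, fell by 2.99 and 2.32. Neither these 16 genes nor the other ligands and receptors differed by the rule between WT and KO clones in either condition or in the IFNγ response.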

How the data were processed

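The authors aligned stranded, paired-end mRNA reads to GRCh38 with STAR 2.7.9a, allowed up to 4 mismatches per pair, kept unique mappers and counted them with featureCounts 2.4.0. The deposited values are raw counts per RefSeq gene with no normalization, and all 20 columns were matched to a clone and treatment. Counts were fitted with edgeR 4.0.16 (R 4.3.3, TMM, its filter on low counts, robust quasi-likelihood test) in 5 against 5 libraries, or over all 20 for the difference between responses, and p values were adjusted over all genes tested. The main test is edgeR's, whereas the authors used DESeq2 with normal shrinkage, which was run here as an alternative (DESeq2 1.42.0). CPM were scaled by TMM over all libraries. Permutation tests used SciPy 1.17.1. Scripts were tested on simulated data. The members, gene lists and tests were chosen with earlier results of these data known. All 10 members were named, and of each list at most 4 genes called with IFNγ or, with none called, the 2 most abundant. CCL24, CXCL14, CXCR3, CCR2 and CCR1 are among the genes named in addition.

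The labels name a clone for each library, so replicate numbers pair treated and untreated libraries within a genotype. Deviations from the group means over 21052 genes correlated at 0.63 to 0.80 in the 5 WT pairs and at 0.60 to 0.79 in KO replicates 1 to 3. In KO replicates 4 and 5 they correlated at -0.02 and 0.05, and each matched the other's number best (0.59 and 0.67), so the exchanged pairing was also fitted. Same numbers of WT and KO clones are no pairs. The alternatives of leaving out both libraries of a clone within a genotype were chosen after seeing the data.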

Additional observations from a re-analysis of the deposited data

Results flagged for a closer look

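In 36 groups of 5 libraries, a highest or lowest value separated from the rest beyond Dixon's critical value of 0.71 was found 4 times. For independent normal values that cut-off gives about 1 in 20, or 1.8 groups. Many of these CPM are 0 or skewed and the groups share libraries, so 1.8 is not a valid expectation for the 4 found. CXCL9 in untreated WT replicate 4 was 0.0978 CPM, from 6 counts, and 0 in the other 4 clones, which sets Dixon's ratio at 1.0 whatever the count. CXCL9 in treated WT replicate 4 was 490.3 CPM, and the next highest clone had 94.2 CPM. CCL2 in treated KO replicate 3 was 39.1 CPM against 12.5 CPM in the next, and CCL5 in the same library was 7.75 CPM against 0.526 CPM. Both KO values belong to the clone whose ZBTB48 mRNA was not reduced, and the part of this in the values was not tested. The CCL2 response to IFNγ differed between genotypes by 1.00 on the log2 scale (WT minus KO, unadjusted two-sided exact permutation p = 0.00794, n = 5 clones each). In edgeR's test, adjusted over all genes, the difference was not called.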

How the results depend on the processing

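Of 104 alternative counts of called chemokines, all stayed within 1.5 times the main count. That limit does not see which genes were called. In the WT against KO comparisons and the response difference every count was 0, so the limit was met there without any call. Of 802 alternative fold changes 751 kept their direction and call, 20 lost a call, 11 gained one and 20 changed sign. These include fits of WT against KO with the replicate number as a block, although same numbers there are no pairs. DESeq2's normal shrinkage took CXCL9 and CXCL11 under 2-fold in WT clones (0.62 and 0.96 on the log2 scale) and left CXCL10 just over it (1.02). Without shrinkage DESeq2 gave 12.9, 9.74 and 13.2 for these genes in WT clones. In KO clones the shrunken values were 7.998 for CXCL9, 7.06 for CXCL11 and 1.37 for CXCL10. With the clone as a replicate block, CXCL8 (2.41) and CCL2 (-1.28) gained a call in KO clones, also with KO replicates 4 and 5 exchanged (2.49 and -1.28), and the block changed no other call. In the response difference CCL5 turned from -1.25 to 0.22 with the block and 0.041 with the exchange. The difference between responses by clone turned to 0.38 and 0.22 for CXCL11 and to -0.25 and -0.20 for CCL5 with pseudocounts of 1 and 0.5 CPM. The causes of these changes were not tested.

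Leaving out 1 library or clone changed the sign of values that were not called. Log2 fold changes with IFNγ ranged from -0.45 to 0.13 for CCL2 and -0.30 to 0.93 for CCL7 in WT clones and from -0.73 to 0.11 for CCL7 in KO clones. WT against KO, untreated CX3CL1 ranged from -0.16 to 0.56, CCL2 from -0.012 to 0.96 and CCL7 from -0.24 to 0.70, and treated CXCL9 from -0.24 to 1.15 and CCL5 from -2.19 to 0.94. The response difference ranged from -2.59 to 0.56 for CXCL10, -0.38 to 0.036 for CXCL16, -0.17 to 0.77 for CX3CL1, -0.55 to 0.36 for CXCL8 and -1.67 to 0.96 for CCL5. By clone it ranged from -0.30 to 0.40 for CXCL9, -0.36 to 0.018 for CXCL16, -0.031 to 0.60 for CX3CL1, -0.39 to 0.41 for CXCL8 and -0.43 to 0.71 for CCL5.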
